A study of Mus musculus with 2 samples.

Results

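The miR-15 and miR-16 miRNAs were examined in G2N2C, a cell line of mouse basal cell carcinoma (BCC), in which D3 had been targeted by interference. The set comprised every mouse miRNA on the array named miR-15a, miR-15b, miR-16 or miR-195, on either arm of the hairpin. This gave 5 miRNAs, each with 1 probe, of 373 mouse miRNAs to which the authors' deposited table gives a fold change: mmu-miR-15a, mmu-miR-15b, mmu-miR-15b*, mmu-miR-16 and mmu-miR-195, with the prefix for mouse mostly left out below. A fold change was deposited for each of the 5, so none was left out for lack of one, and miR-15b* was the single passenger arm among them.

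D3 stands for type 3 deiodinase, an enzyme that inactivates thyroid hormone and is encoded by Dio3. One group of cells received Stealth-D3 oligonucleotides and the other Stealth-ctr control oligonucleotides. Both groups were otherwise the same G2N2C cells. The medium was low in calcium and held keratinocyte growth factor and 8% serum from which calcium had been chelated, and cells were harvested 48 h after they received the oligonucleotides. Within each group the RNA of 3 experiments was pooled, and the same pair of pools was hybridised to 2 two-colour arrays with the dyes exchanged. On the first array the Stealth-D3 pool carried Cy3, and on the second it carried Cy5. The arrays therefore hold 1 replicate per condition in 1 cell line. Every SD below is technical, over both arrays, and no p-value between the conditions was computed. The extent of the D3 interference was not analysed here.

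miRNAs are cut from hairpin precursors and guide a silencing complex to messenger RNAs that match their seed, bases 2 to 8. Members of the miR-15 family are best known for restraining the cell cycle at the G1/S transition, by lowering cyclins D and E and their kinases, and for lowering the survival factor Bcl2. In human chronic lymphocytic leukaemia the locus of miR-15a and miR-16 is often deleted, which is the classical case for a role as tumour suppressors. miR-195 is known in the mouse heart, where it promotes the exit of cardiomyocytes from the cell cycle after birth.

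The mature sequences are shown because the shared seed defines the family and the differences behind it are what separates the probes' targets. They are RefSeq sequences of GRCm38.p6, written 5′ to 3′ with the seed in capitals, and all 5 array names were matched. miR-195 of the array is the current miR-195a-5p, and miR-15b* is miR-15b-3p.
miR-15a: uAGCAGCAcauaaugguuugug
miR-15b: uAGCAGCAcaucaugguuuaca
miR-16: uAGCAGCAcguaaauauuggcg
miR-195: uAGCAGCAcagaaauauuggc
miR-15b*: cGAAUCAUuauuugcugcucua
The 4 guide strands share the seed agcagca, and miR-15b* does not. Of 1679 mature mouse miRNA names in the RefSeq table, 10 have this seed. Of these, 6 were found on the array under the names sought: the 4 guide strands, miR-322 and miR-497.

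Counted from 1 at the 5′ end and without gaps, miR-15a and miR-15b differed at 4 of 22 bases, as A12C, G20A, U21C and G22A, with the base of miR-15a first. miR-16 and miR-195 differed at 2 of 21 bases, G10A and U11G, with the base of miR-16 first. Between these pairs the distance was larger, with 6 differences of miR-15a from either miR-16 or miR-195, 8 between miR-15b and miR-16, and 7 between miR-15b and miR-195. Probe sequences were not used here, so cross-hybridisation between such close relatives was not tested.

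The hairpins are shown because they set what the array can resolve. In RefSeq GRCm38.p6, Mir15b lies at chr3:69009772-69009835 and Mir16-2 next to it at chr3:69009902-69009996, both on the plus strand and within the gene Smc4, which encodes a condensin subunit. Mir15a and Mir16-1 (chr14:61631880-61631972, minus strand) lie together within Dleu2, a long non-coding RNA. Mir195a neighbours Mir497 on chromosome 11. The mature miRNAs are in capitals.
Mir15b: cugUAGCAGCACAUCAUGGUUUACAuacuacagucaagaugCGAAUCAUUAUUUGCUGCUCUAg
Mir16-1: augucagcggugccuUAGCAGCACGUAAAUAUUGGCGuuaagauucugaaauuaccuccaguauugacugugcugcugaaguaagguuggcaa
Mir16-2: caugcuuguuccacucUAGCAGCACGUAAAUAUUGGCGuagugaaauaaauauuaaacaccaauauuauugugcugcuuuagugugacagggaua
The same miR-16 sequence is cut from Mir16-1 and Mir16-2, so the miR-16 probe cannot separate these loci. In the RefSeq table miR-15a comes from the chromosome 14 pair, and miR-15b and miR-15b* from the chromosome 3 pair.

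Values are log2 ratios between the pools, turned so that both arrays point the same way and a positive value lies on the side of miR-21, an oncogenic miRNA that had 3.08 and 4.12 on the arrays. Which dye was divided by which is not stated in the labels or files. With Cy5 over Cy3, positive values would stand for more miRNA in the Stealth-D3 pool, and with Cy3 over Cy5 for more in the Stealth-ctr pool. Sizes and sides are therefore given without a direction. Levels in each pool were not analysed here, because the files used give ratios per array and 1 average intensity per probe. In such bulk RNA, fewer cells that make a miRNA and less of it per cell cannot be told apart.

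A miRNA was counted when its arrays agreed in sign and the mean came to at least 1.5-fold (a log2 ratio of 0.585). By this rule 1 of the 5 miRNAs passed toward miR-21 and none opposite. Over all 373 mouse miRNAs the rule was met toward miR-21 by 8.85% and opposite by 3.22%. The median of the 5 was 0.07, beside 0.08 over the 373.

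The log2 ratio of mmu-miR-15b, the guide strand of the Mir15b hairpin on chromosome 3, was 0.18 on the first array against 1.07 on the second. Both values pointed toward miR-21, and the second array was the higher. The mean was 0.62 ± 0.63 (technical SD, 2 arrays), or 1.54-fold, which was past the rule by a small margin and no larger than its own technical SD. Its passenger strand miR-15b* had 0.37 and -0.03 on the arrays, with a mean of 0.17 ± 0.28. The arms of this hairpin thus differed in which array was higher as deposited, while with the trend removed, as given below, both were higher on the first array. The miR-15b* probe was dim, at 6.86, below the 6.99 that probes without a fold change reached. Nothing is read from this comparison of the arms.

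The other 3 guide strands changed side between the arrays. The ratio of mmu-miR-16, at an average log2 intensity of 10.8, was -1.14 on the first array against 0.57 on the second. Its mean of -0.29 ± 1.21 was small beside the spread, which was the 30th largest technical SD of the 373 miRNAs. For mmu-miR-15a the values were -0.40 and 0.54, with a mean of 0.07 ± 0.66. For mmu-miR-195 they were -0.36 and 0.29, with a mean of -0.03 ± 0.46. In each of these 3 the first array lay opposite miR-21 and the second on its side, so the means near 0 came from values of opposite sign and do not show that levels were alike in the pools. Both arrays had the same sign in 1 of the 5 miRNAs and in 169 of the 373 (45.3%).

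**Figure D1:**
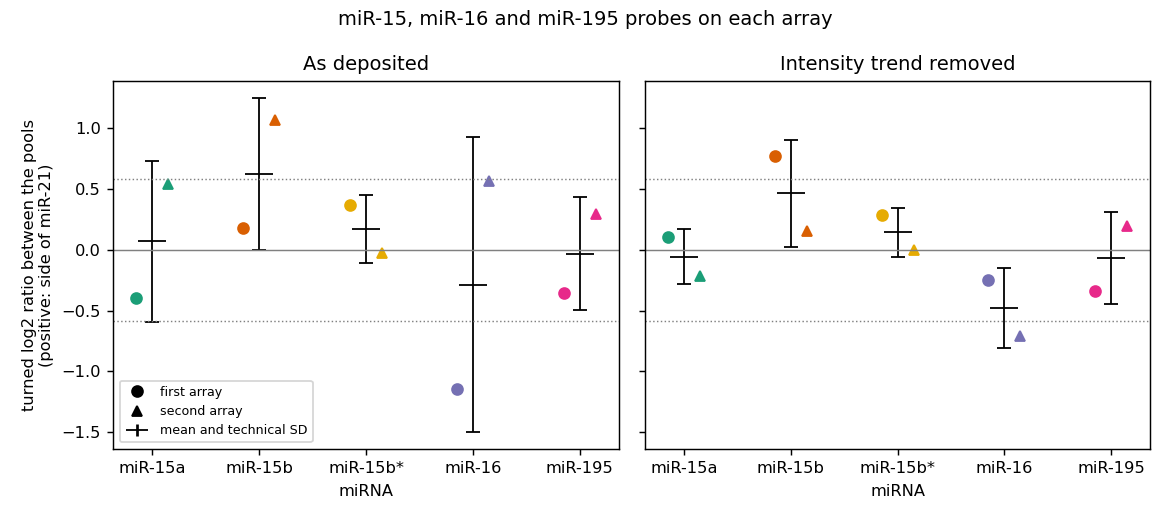
Turned log2 ratio (vertical axis) of the 5 miRNAs (horizontal axis) on the first array (circles) and the second (triangles), with the mean and technical SD over both arrays in black and dotted lines at 1.5-fold. As deposited (left) miR-16 runs from -1.14 to 0.57; with the intensity trend removed (right) both of its values lie below 0, at -0.25 and -0.71.

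The deposited ratios depended on brightness. Before turning they correlated with average log2 intensity over the 2101 probes of the fold-change table with r = 0.51 (first array) and r = 0.57 (second array), a description across probes of the same arrays. With the dyes exchanged, such a trend pushes bright probes to opposite sides on the turned arrays. At the intensity of miR-16 a smooth (lowess) trend stood at -0.90 on the first turned array and 1.28 on the second. It stood at -0.59 and 0.91 for miR-15b with an intensity of 9.93, and at -0.50 and 0.76 for miR-15a with 9.56. For the dimmer miR-195 (7.23) and miR-15b* (6.86) it stayed within 0.10 of 0, between -0.03 and 0.10. As deposited miR-16, miR-15a and the dim miR-195 and miR-15b* were split in sign between the arrays, and the bright miR-15b was not. The part of the trend in these values was not tested.

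**Figure D2:**
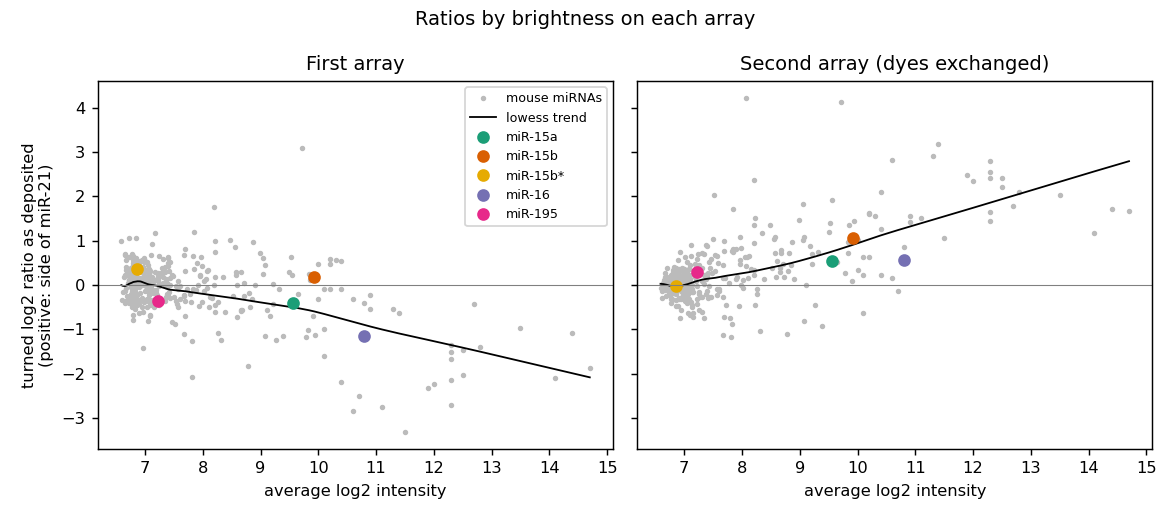
Turned log2 ratio as deposited (vertical axis) against average log2 intensity (horizontal axis) on the first array (left) and the second (right) for the 373 mouse miRNAs, with the lowess trend as a line and the 5 miRNAs in colour. The trend falls with brightness on the first turned array and rises on the second, to -0.90 and 1.28 at miR-16.

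With the trend removed from each array, none of the 5 passed the rule. Over the 373 miRNAs 8.04% then passed on the side of miR-21 and 5.36% opposite. The median of the 5 was -0.06, beside 0.03 over the 373. Both arrays then had the same sign in 3 of the 5 miRNAs and in 193 of the 373 (51.7%). Across the 373 miRNAs the turned arrays correlated with r = -0.08 as deposited and r = 0.43 with the trend removed. Agreement in sign alone was therefore common, and little is read from it for a single miRNA.

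The ratio of miR-16 was then -0.25 on the first array against -0.71 on the second. Both lay opposite miR-21, with a mean of -0.48 ± 0.33, or 1.39-fold, short of the 1.5-fold asked for. The authors' deposited table gives miR-16 a log2 fold change of -0.48, the lowest of the 5. miR-15b had 0.77 and 0.15, both still on the side of miR-21. Its mean of 0.46 ± 0.44 was 1.38-fold and was below the threshold. The authors' deposited table gives miR-15b 0.20, the single positive value among the 5.

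For miR-15a the arrays remained on different sides with the trend removed, now at 0.10 and -0.22. The mean was -0.06 ± 0.23, and -0.20 in the authors' deposited table. miR-195 likewise stayed split, with -0.34 and 0.20, a mean of -0.07 ± 0.38 and -0.15 in the authors' deposited table. miR-15b* had 0.29 and 0.00, with a mean of 0.14 ± 0.20 and -0.01 in the authors' deposited table. The last of these values lies just above 0 at 0.0014, so its sign carries nothing.

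None of the 5 reached 1.5-fold in the authors' deposited table, where 3.75% of the 373 miRNAs did so toward miR-21 and 5.63% opposite. That table also holds unadjusted p-values, and what served as their replicates is not stated. Because both arrays carry a single pair of pools, these p-values cannot measure variation between experiments. In the authors' deposited table the p-value was 0.0284 for miR-16 and lay between 0.212 and 0.952 for the other 4. Of all 1677 probes with such a p-value, 13.5% were under 0.05. After Benjamini-Hochberg adjustment of the authors' deposited p-values over these 1677 probes, that of miR-16 was 0.259.

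Mir15b and Mir16-2 are neighbours in the genome, and with the trend removed miR-15b and miR-16 lay on different sides. This pair was singled out after its values were seen. The ratio of miR-15b was above that of miR-16 by 1.33 on the first array against 0.50 on the second as deposited, a mean difference of 0.91 ± 0.59. With the trend removed the differences were 1.02 and 0.86, with a mean of 0.94 ± 0.11, or 1.92-fold. Both arrays thus put miR-15b toward miR-21 relative to miR-16 under either treatment. From the values in the authors' deposited table the difference is 0.68.

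A difference of this kind was common among bright miRNAs. Of the 1953 pairs formed by the 63 miRNAs at an average intensity of 9 or more, 41.3% differed in the same direction on both arrays and by at least 1.5-fold as deposited, and 50.5% with the trend removed. Of the 3 pairs among miR-15a, miR-15b and miR-16, which are at that intensity, this held for 1, miR-15b with miR-16, both as deposited and with the trend removed. miR-195, at 7.23, lies outside the set of these shares. Its pair with miR-15b met the same criteria as deposited and did not with the trend removed, when it differed by 1.11 on the first array and by -0.04 on the second. Because miR-16 is cut from both loci, its ratio cannot be split between the chromosome 3 and chromosome 14 hairpins.

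miR-15b also lay above miR-15a, its nearest relative in sequence, by 0.58 on the first array against 0.53 on the second, a mean of 0.55 ± 0.04 as deposited. With the trend removed these were 0.67 and 0.37, with a mean of 0.52 ± 0.21. The direction was the same on both arrays, and the size, 1.47-fold as deposited, stayed under 1.5-fold. miR-15a and miR-16, the chromosome 14 pair, differed by 0.75 and -0.03 as deposited and by 0.35 and 0.49 with the trend removed. miR-16 and miR-195, which are the closest of the 4 in sequence, had no stable order: miR-195 was above miR-16 by 0.79 on the first array and below it on the second, with -0.27.

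**Figure D3:**
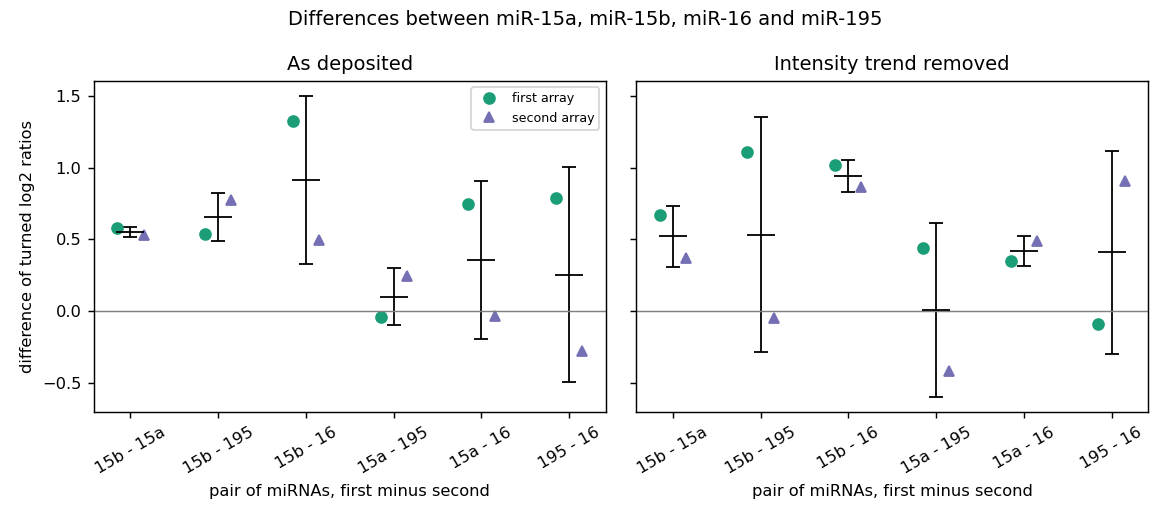
Difference between the turned log2 ratios of 2 guide strands (vertical axis), first minus second as named on the horizontal axis, on the first array (circles) and the second (triangles), with the mean and technical SD in black. The pair of miR-15b and miR-16 has 1.33 and 0.50 as deposited (left) and 1.02 and 0.86 with the trend removed (right).

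The miR-15 family belongs to a wider group with miR-103 and miR-107 that shares the core of the seed, shown here to set the relatives beside the 4 guide strands.
miR-322: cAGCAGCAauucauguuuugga
miR-497: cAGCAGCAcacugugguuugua
miR-503: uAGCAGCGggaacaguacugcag
miR-103: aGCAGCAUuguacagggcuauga
miR-107: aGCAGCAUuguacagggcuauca
Of the 6 names listed for this group, miR-424 was not matched to a mouse probe name and miR-497 had no fold change in the authors' deposited table, which left 4. None of the 4 passed the rule as deposited, beside 8.85% of the 373 toward miR-21 and 3.22% opposite. Their median was -0.08. miR-503, a cell cycle miRNA with a seed that ends in another base, had -0.38 and -0.73 on the arrays. Both lay opposite miR-21, with a mean of -0.55 ± 0.25, just short of 1.5-fold. With the trend removed it had -0.22 and -0.96, with a mean of -0.59 ± 0.52. It was then the single miRNA of the 4 to pass, beside 5.36% of the 373 opposite miR-21. Nothing particular to the group is read from this count.

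miR-322, the mouse counterpart of human miR-424 and a neighbour of miR-503 on the X chromosome, had 0.04 and -0.61, with a mean of -0.29 ± 0.46. miR-103 and miR-107, known for roles in metabolism, had 0.12 ± 0.16 and 0.27 ± 0.39. The miR-107 values were -0.01 and 0.55 on the arrays. miR-497, the cluster partner of miR-195, had 0.61 and 0.23 with a dim average intensity of 6.72, below the 6.99 that probes without a fold change reached. At this brightness its values cannot be set against those of miR-195.

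The other miRNAs known to act on the G1/S transition gave a mixed picture. Of 17 named, miR-34b-3p was not matched to a mouse probe name, and of the 16 measured 4 passed on the side of miR-21 and 3 opposite, beside 8.85% and 3.22% of the 373. The list was chosen with earlier results known, so nothing particular to it is read from these counts. Their median was 0.08, the same to 2 decimals as that of the 373. On the side of miR-21 were miR-26a with 1.10 ± 0.71, miR-221 with 0.97 ± 0.01 and miR-222 with 1.05 ± 0.82, of which the last 2 are known to lower the inhibitor p27, and miR-106a with 0.63 ± 0.54. The 3 opposite were the p53 targets miR-34a, miR-34b-5p and miR-34c, with means from -0.85 to -1.11.

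Several bright miRNAs of the list were split between the arrays as miR-15a and miR-16 were. miR-20a, a member of the miR-17-92 cluster that supports proliferation, had -0.43 and 0.48 on the arrays at an intensity of 9.22. miR-106b had -0.31 and 0.33 at 10. The very bright let-7a, let-7b and let-7c, which restrain growth, had means from 0.05 to 0.14 with technical SDs from 2.12 to 3.23. miR-24, at 12.5, had -1.45 and 2.42. The less bright miR-17 (8.8) had -0.17 and 0.31, and miR-449a (7.07) had 0.36 and -0.39. miR-93 was not split, with 0.30 and 0.79, and its mean of 0.54 ± 0.35 fell short of the rule. With the trend removed the 4 on the side of miR-21 became 3, without miR-106a, and the 3 opposite stayed past the rule, beside 8.04% and 5.36% of the 373. miR-221 then had 1.32 and 0.47, with a mean of 0.90 ± 0.60, so its small technical SD as deposited was not kept.

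**Figure D4:**
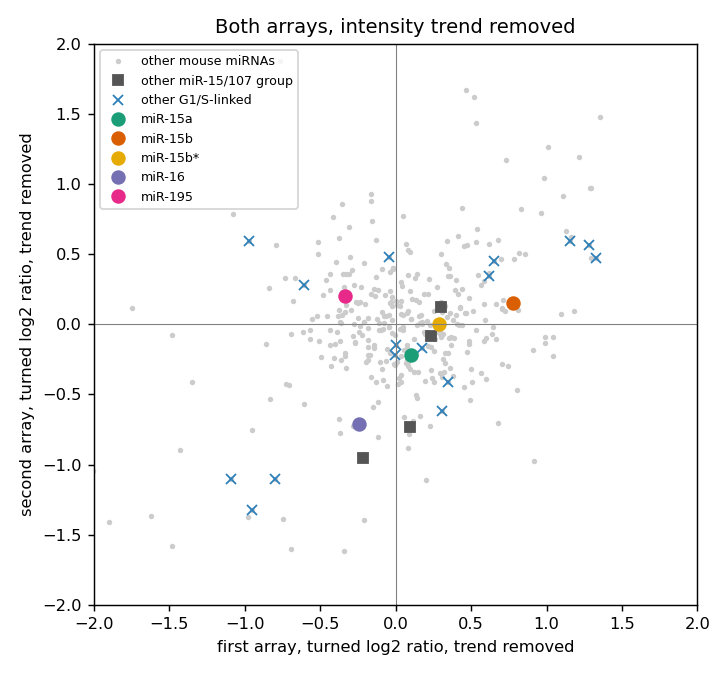
Turned log2 ratio with the intensity trend removed on the first array (horizontal axis) and the second (vertical axis) for the mouse miRNAs, of which 5 fall outside the axes. miR-16 (-0.25 and -0.71) lies at the lower left with miR-503, and miR-15b (0.77 and 0.15) on the right.

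The miRNAs most like each guide strand were taken as the 3 with the smallest distance over both turned arrays with the trend removed, which rests on 2 values of 1 pair of pools. For miR-16 these were miR-32, with -0.28 and -0.72, miR-338-5p and miR-10a. A distance of at most 0.25 from miR-16 was found for 8 miRNAs. For miR-15b they were miR-125a-5p, with 0.81 and 0.10, miR-875-5p and miR-363, and 12 lay within 0.25. For miR-15a they were miR-182, miR-19a* and miR-204, among 65 within that distance. For miR-195 they were miR-485*, miR-546 and miR-142-5p, among 37. The values of miR-15a and miR-195 thus had more miRNAs within that distance than those of miR-15b and miR-16.

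Of the keratinocyte miRNAs, the probes of miR-205, miR-200b and miR-200c had average intensities of 11.9, 10.1 and 9.08, and that of miR-203 had 7.16. The fibroblast and smooth muscle miRNAs miR-143, miR-145 and miR-214 had 8.2, 6.83 and 7.56, and miR-199a-3p of that list was not matched to a mouse probe name. The blood cell miRNAs miR-142-3p, miR-223, miR-451 and miR-144 had between 6.64 and 7.52. Intensities depend on the probe and are not compared as levels. Their mean ratios lay between -0.98 and 0.09 in the keratinocyte list and between 0.11 and 2.06 in the fibroblast list, the last being miR-143. They lay between -0.08 and 0.58 for the 3 blood cell miRNAs with a fold change. Some of these means came from arrays of opposite sign. The 0.09 of miR-205 came from -2.31 and 2.49, and the 0.58 of miR-223 from -0.88 and 2.04. The part of other cells in the ratios of the miR-15 and miR-16 miRNAs was not tested.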

How the data were processed

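Total RNA of transfected G2N2C cells was extracted with Trizol, column-purified, labelled and hybridised to locked nucleic acid miRNA arrays, per the labels. A first deposited table gives a log2 dye ratio for 2244 features on each array. Its log base, its centring and the order of the dyes are not given here, and its columns had medians of 0.039 and 0.040. A second deposited table has 1 line per probe with the log2 fold change, the fold with its sign, the p-value without adjustment and the average log2 intensity, per the file headers. The ratios were read as log2: over 1677 probes the mean turned ratio tracked the deposited fold changes (r = 0.83), rising by 1.24 per log2 unit at intensities of 9 to 12, against 0.693 for natural logs. Log2 ratios on the same scale would rise by 1, which was not met either, so the log base remains an assumption. How the authors corrected the background and normalized is not given in either source.

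The sign of the first array was turned and both arrays were averaged. Used were 376 mouse probes with a fold change, for 373 miRNAs, and 46 mouse probes without one entered an alternative. The trend was a lowess fit (span 0.3) on average intensity over 2101 probes. The procedure was tested on simulated data. Named are all members, all measured members of the lists, and the 3 nearest miRNAs of each guide strand. Members and lists were chosen with earlier results of these data known. Alternatives were single arrays, median centring, trend removal, the authors' fold changes, thresholds of 1.3-fold and 2-fold, brighter miRNAs only and dim probes included. Python 3.11.15, NumPy 2.4.6, pandas 2.3.3, statsmodels 0.14.6 and matplotlib 3.10.9 were used. The number of arrays limits the precision.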

Additional observations from a re-analysis of the deposited data

How the results depend on the processing

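The means of miR-15a, miR-15b, miR-16 and miR-195 and the median of the 5 moved by less than their technical SD under every alternative run, but these SDs are wide. For these means on the single arrays that outcome was fixed in advance. Each array always lies closer to the mean of both than the SD computed from them, so nothing is read from it. On the single arrays the mean ran from -0.40 to 0.54 for miR-15a, 0.18 to 1.07 for miR-15b, -1.14 to 0.57 for miR-16 and -0.36 to 0.29 for miR-195, and the median of the 5 from -0.36 to 0.54. miR-15a and the median changed sign with the trend removed (both -0.06) and in the authors' deposited table (-0.20 and -0.15). The count of 1 past the rule, miR-15b, became 0 with median-centred arrays (0.55), with the trend removed, in the authors' deposited table and at 2-fold. It was 1 on either array alone, miR-15b on the second and miR-16, opposite, on the first. The count of 0 in the group of miR-103 and miR-107 became 1 with median centring, with the trend removed and at 1.3-fold, and ran from 0 to 2 on the single arrays, where no agreement in sign is asked. The count of 7 in the G1/S list became 6 with median centring and with the trend removed. It became 5 in the authors' deposited table, 8 at 1.3-fold and 4 at 2-fold, and ran from 9 to 11 on the single arrays. No matching share over all mouse miRNAs was computed for the single arrays, median centring, or the 1.3-fold and 2-fold thresholds. Whether any of the counts under these settings is high or low among mouse miRNAs can therefore not be judged. The difference between miR-15b and miR-16, an alternative set added after seeing the data, kept its sign throughout, from 0.50 to 1.33. No paired analysis was possible because the arrays carry a single pair of pools. The probes of miR-195 (7.23) and miR-15b* (6.86) lay near the intensity of 6.99 that probes without a fold change reached, which limits both. The cause of these changes was not tested.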
